A study of Homo sapiens with 4 samples.

Results

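This report covers 34 genes of glucose uptake, glycolysis, pyruvate oxidation and the pentose phosphate pathway, taken by name, with earlier results of these data known but by no measured value, out of 20045 genes with a named probe on the array. Their 59 probes, of 47322 in all, were found by the gene's current symbol or an older one. Per the labels and the series' design text, one group was a stable K562 line with a short hairpin RNA (shRNA) that knocks down KLF3, a Krüppel-like zinc finger protein known mainly for repressing transcription. The other group was a stable K562 line with an shRNA control. K562 is a human erythroleukemia line from a chronic myeloid leukemia, it carries the BCR-ABL fusion, and all cells were kept in ordinary culture without any other treatment. Each line was profiled on 2 Illumina bead arrays, the second of each labelled as a repeat. Each group is therefore 1 line, and since the labels do not say whether the repeats came from separate culture dishes, p-values measure the spread between arrays, which may be technical. In bulk RNA a smaller share of cells that express a gene and less of its RNA per cell cannot be told apart.

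Glycolysis splits glucose into pyruvate in the cytosol and yields ATP and NADH. Its upper part spends ATP to make triose phosphates, with phosphofructokinase as the main control point, and its lower part recovers the energy. Pyruvate then goes to lactate through lactate dehydrogenase or into the mitochondrion through pyruvate dehydrogenase, which pyruvate dehydrogenase kinases switch off. The pentose phosphate pathway branches off at glucose phosphate, makes NADPH in its oxidative arm, and through its non-oxidative arm exchanges sugars with glycolysis and supplies ribose phosphate for nucleotides. Proliferating leukemia cells are known for high glucose uptake, and mature red cells live on glycolysis alone.

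The arrays detected between 15479 and 15534 probes in the knockdown group and between 15934 and 16182 in the control group. All 9 erythroid markers of K562 with a probe, among them the globin genes HBG1, HBE1 and HBZ and the factor gene GATA1, were detected on all 4 arrays, and all 13 markers of T cells, B cells, fibroblasts and neutrophil precursors were detected on none. Of the 9 erythroid markers 5 rose (HBG1, HBE1, HBZ, ALAS2 and LMO2), 1 fell (TFRC) and 3 did not pass (limma, as below). Among all genes tested 19.4% were called higher and 20.7% lower. HBZ was 4.76-fold and HBE1 3.58-fold higher. HBZ lies on chromosome 16, where its tested neighbours had a median log2 difference of 0.68. The part of these markers in the results that follow was not tested. The targeted gene could not be checked. Its 2 probes gave 139 ± 0.265 and 124 ± 4.68 in knockdown cells and 136 ± 9.76 and 122 ± 5.33 in control cells (raw intensity, SD, n = 2 each), not well above background on any array.

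Values below are log2 signals after background correction and quantile normalization. A gene was tested if a probe of it was detected, at p under 0.01, by each array of at least 1 group, and its brightest such probe stood for it. Of the list, 31 of 34 genes were tested, and all 31 were detected on all 4 arrays, so none entered through 1 group alone. The other 3 were the kinase genes PDK1, PDK2 and PDK3. Differences are knockdown minus control with their standard error (SE), tested with limma and adjusted by Benjamini-Hochberg over 9530 genes at a threshold of 0.05, and signals of different probes cannot be ranked against each other.

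In the KLF3 knockdown line the early steps of glycolysis moved in both directions. None of the listed genes from triose phosphate to lactate passed the test by its brightest probe. GAPDH, PGK1, ENO1 and LDHA passed under some alternatives given below, as did some other probes of GAPDH, PGK1 and PKM. The enolase gene ENO3, outside the list, was 1.78-fold higher (limma adjusted p = 0.0019). PFKFB4, a bifunctional enzyme that sets the activator of phosphofructokinase, was 2.06-fold higher and the aldolase gene ALDOA 1.73-fold higher. The pyruvate dehydrogenase kinase gene PDK4 was 1.74-fold lower and PGD, of the oxidative pentose phosphate arm, 1.64-fold lower. Over the whole list 8 genes rose and 6 fell, and 17 did not pass. That is 45.2% of those tested, against 40.0% called among all genes, with 19.4% higher and 20.7% lower, so the share called lies near the background. With arrays scaled to their median in place of quantile normalization, the same 14 members passed, while over all genes 1286 rose and 2151 fell in place of 1845 and 1971. The median difference of the 31 members was 0.10, against -0.01 over all genes tested, and 21 of the 31 lay above 0, against 4592 of 9530. Median scaling gave medians of 0.06 for the members and -0.08 for all genes, with 19 of the 31 members above 0. Fewer genes passed with either control array left out, in the list and over all genes tested.

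**Figure D1:**
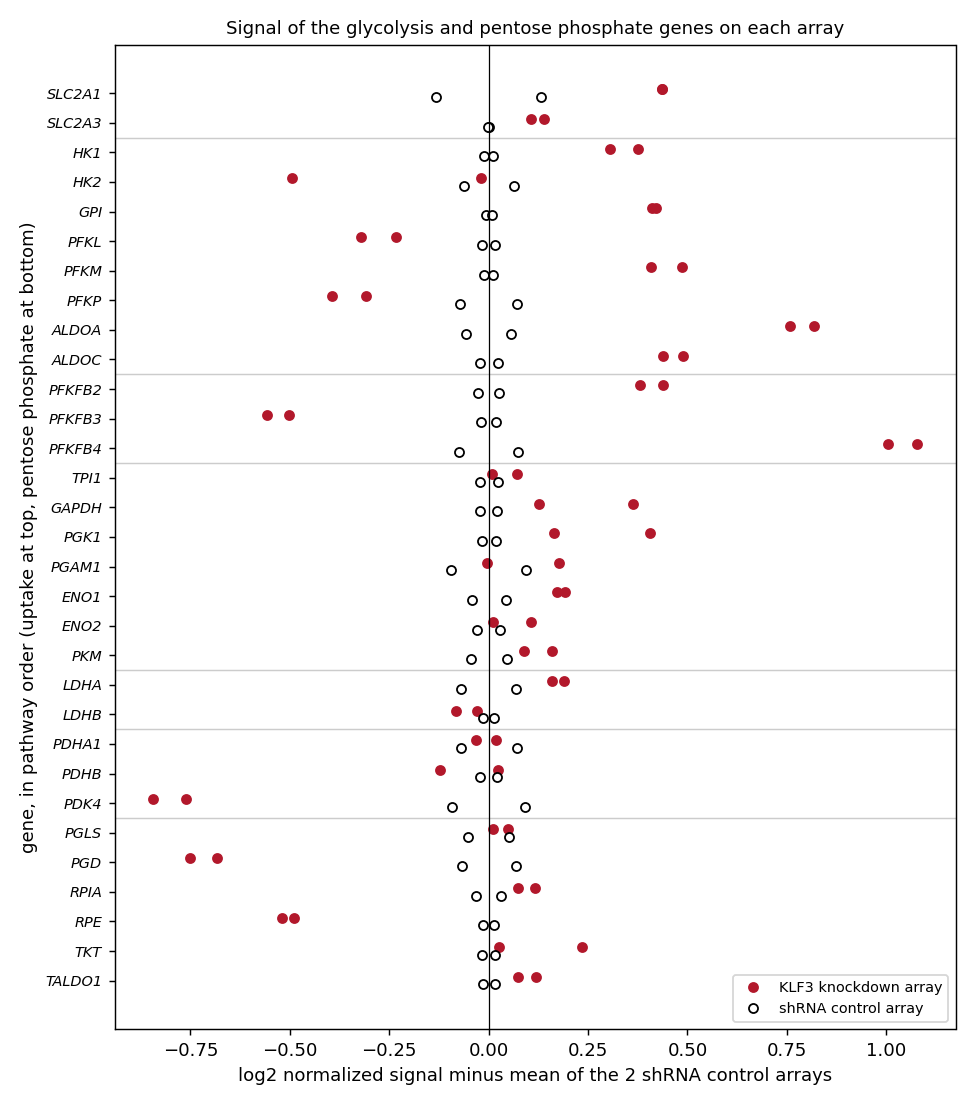
Normalized log2 signal of each of the 31 tested genes on each array, minus the mean of its 2 shRNA control arrays; filled points are KLF3 knockdown arrays and open points shRNA control arrays, and genes run down the page in pathway order with lines between steps. Knockdown arrays stand clear of the control arrays for genes such as PFKFB4, ALDOA, PDK4 and PGD, and mix with them for TPI1, PGAM1, ENO2, HK2, PDHA1, PDHB and PGLS.

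The groups did not overlap for 24 of the 31 genes, 17 above and 7 below the control arrays, and among all genes 73.5% did not overlap, 35.3% above and 38.3% below. Replicate arrays of these genes lay close. The median gap between the knockdown arrays was 0.06 and between the control arrays 0.05, against 0.11 and 0.09 over all genes tested. The widest gaps of members were 0.48 between the knockdown arrays, at HK2, and 0.26 between the control arrays, at SLC2A1. The members had a median log2 signal of 10.20, against 8.43 over all genes tested. Gaps were not compared at like signal.

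The promoters of the gene with the largest rise and of the pair with the largest falls are shown because their genes mark the extremes of the list and each has a single start in the reference table. They are RefSeq sequences of build GRCh38.p14, each a window of 300 bases that lies mostly upstream of the start, 5′ to 3′ on the gene's strand. Capitals mark CACCC, the core of the box that Krüppel-like factors bind, and ACGTG, a form of the core of the hypoxia response element. Each was marked on either strand (GGGTG and CACGT on the other), and CACGTG counts on both strands. The other form of the hypoxia element core, GCGTG, was neither searched nor marked.
PFKFB4 (chr3:48556754-48557053, minus strand): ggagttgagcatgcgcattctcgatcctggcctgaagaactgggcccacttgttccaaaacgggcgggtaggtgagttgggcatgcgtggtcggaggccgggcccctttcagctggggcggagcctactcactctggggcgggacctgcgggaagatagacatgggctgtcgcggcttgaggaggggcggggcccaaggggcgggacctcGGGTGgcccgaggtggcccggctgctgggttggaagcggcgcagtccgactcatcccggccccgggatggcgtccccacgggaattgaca
PDK4 (chr7:95596467-95596766, minus strand): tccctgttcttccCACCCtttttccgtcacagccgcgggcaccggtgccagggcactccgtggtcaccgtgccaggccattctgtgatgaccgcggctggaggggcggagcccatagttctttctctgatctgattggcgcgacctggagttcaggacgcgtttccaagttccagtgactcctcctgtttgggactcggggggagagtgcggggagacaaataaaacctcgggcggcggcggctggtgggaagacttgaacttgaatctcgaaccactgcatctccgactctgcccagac
PGD (chr1:10398814-10399113, plus strand): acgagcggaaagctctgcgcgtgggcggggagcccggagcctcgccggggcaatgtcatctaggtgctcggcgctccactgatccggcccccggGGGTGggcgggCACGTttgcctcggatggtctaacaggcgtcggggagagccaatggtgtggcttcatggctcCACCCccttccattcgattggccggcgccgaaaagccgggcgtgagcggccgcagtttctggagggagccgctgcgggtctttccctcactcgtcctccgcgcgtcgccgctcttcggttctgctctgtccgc
The PFKFB4 window holds CACCC 1 time, on the other strand, and no ACGTG. The PDK4 window holds CACCC 1 time as written and no ACGTG. The PGD window holds CACCC 2 times, 1 on each strand, and ACGTG 1 time on the other strand. These short words are common. Over the first listed start of each gene, CACCC occurred in 25 of the 32 member promoters with a sequence (78.1%), against 62.6% of 7841 promoters of genes tested and 58.9% of all 27305. Member promoters had a median GC content of 69.2%, against 65.3% for genes tested. CACCC was present for 6 of 7 genes that rose, 6 of 6 that fell and 12 of 16 that did not pass. ACGTG occurred in 11 of the 32 (34.4%), against 28.1% for genes tested. A match in a window is no evidence that a factor binds there.

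Glucose enters through facilitative transporters. SLC2A1, encoding the widespread basal transporter GLUT1, had log2 signals of 10.52 and 10.52 in knockdown cells, against 10.22 and 9.95 in control cells. The knockdown arrays were both above the control arrays, which differed among themselves more than for any other of the 31 tested genes. The difference was 0.44 (SE 0.11, limma adjusted p = 0.0219), and it did not pass without control replicate 2 (0.30, adjusted p = 0.118). SLC2A3, encoding the high-affinity transporter GLUT3, had 12.98 and 12.95 in knockdown cells and 12.84 and 12.84 in control cells. Its difference of 0.12 (95% interval -0.07 to 0.32, limma adjusted p = 0.254) did not pass, and its probe may also read the near-identical gene SLC2A14, whose own difference was -0.04.

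Hexokinases trap glucose in the cell as glucose phosphate. HK1, the housekeeping form, had 12.84 and 12.77 in knockdown cells and 12.48 and 12.45 in control cells, without overlap. It rose by 0.34 (SE 0.08, limma adjusted p = 0.0194). A further HK1 probe was detected in knockdown cells but on neither control array, and was at least 1.30-fold higher (limma adjusted p = 0.0113 over all kept probes). That probe entered the test through the knockdown group alone, so its call adds no support to the HK1 rise, nor does the mean of both probes, which gave 0.55. The remaining HK1 probes lay near background and were not kept, with only 1 of them detected, on a single control array. HK2, the form linked to growth and insulin, had 7.66 and 8.13 in knockdown cells and 8.22 and 8.09 in control cells. The groups overlapped, since the knockdown arrays lay far apart, and the difference of -0.26 had a 95% interval of -0.64 to 0.13 (limma adjusted p = 0.236). The difference was -0.50 without knockdown replicate 2 but -0.02 without knockdown replicate 1, so its size depends on the knockdown array used. The other HK2 probe gave -0.10, with overlap, and did not pass (limma adjusted p = 0.555 over all kept probes). GPI, the isomerase that turns glucose phosphate into fructose phosphate, had 10.41 and 10.40 in knockdown cells and 9.98 and 10.00 in control cells, a rise of 0.42 (SE 0.08, limma adjusted p = 0.00898).

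Phosphofructokinase is built from 3 kinds of subunit, and they moved in opposite directions. PFKM, the muscle subunit, had 9.13 and 9.21 in knockdown cells and 8.71 and 8.73 in control cells. PFKL, the liver subunit, had 7.56 and 7.65 in knockdown cells and 7.90 and 7.87 in control cells. PFKP, the platelet subunit, had 9.29 and 9.20 in knockdown cells and 9.52 and 9.67 in control cells. For PFKM the knockdown arrays were above the control arrays, and for PFKL and PFKP they were below them. PFKM rose by 0.45 (SE 0.08, limma adjusted p = 0.00808). PFKL fell by 0.28 (SE 0.08, limma adjusted p = 0.0398) and PFKP fell by 0.35 (SE 0.09, limma adjusted p = 0.0257). In the fit over all kept probes PFKL did not pass (limma adjusted p = 0.0542). The PFKL call is the weakest of the 14: it did not pass with any single array left out (adjusted p from 0.0504 to 0.172), and its difference was -0.18 without background correction.

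The bifunctional PFKFB enzymes make and break the sugar bisphosphate that activates phosphofructokinase. All 3 members passed, against 40.0% called among all genes tested, a contrast that rests on few genes and was not tested. PFKFB4 had 9.76 and 9.84 in knockdown cells and 8.83 and 8.68 in control cells, with raw intensities of 996 and 976 against 579 and 533. The knockdown arrays were about a whole log2 unit above the control arrays. The rise of 1.04 (SE 0.09, limma adjusted p = 0.000715) was the largest of the list, larger in size than that of 97.0% of all genes tested and the only member with a difference of 1 or more. PFKFB2, known as the heart form, had 6.39 and 6.45 in knockdown cells and 6.03 and 5.98 in control cells. It rose by 0.41 (SE 0.08, limma adjusted p = 0.0104) but lies close to background, and without background correction its rise was 0.17. PFKFB3, the inducible form with high kinase activity, had 9.23 and 9.29 in knockdown cells and 9.77 and 9.81 in control cells. It went the other way and fell by 0.53 (SE 0.08, limma adjusted p = 0.00439). The other PFKFB3 probe lay on the same side of 0, at -0.22, and did not pass.

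Aldolase splits the fructose bisphosphate into triose phosphates. ALDOA, the main form in muscle and red cells, had 12.26 and 12.20 in knockdown cells and 11.49 and 11.38 in control cells. It rose by 0.79 (SE 0.09, limma adjusted p = 0.00147), and its other detected probe gave 0.61 (limma adjusted p = 0.00531 over all kept probes). ALDOA is the sole member on chromosome 16, whose 458 tested genes had a median difference of 0.36, 256 of them higher and 23 lower. The 20 nearest tested neighbours of ALDOA had a median of 0.15. ALDOC, the brain form, on chromosome 17, had 9.55 and 9.50 in knockdown cells and 9.08 and 9.04 in control cells, a rise of 0.46 (SE 0.08, limma adjusted p = 0.00681). Its neighbours had a median of -0.13. Across all 31 members the neighbour medians lay between -0.20 and 0.19.

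**Figure D2:**
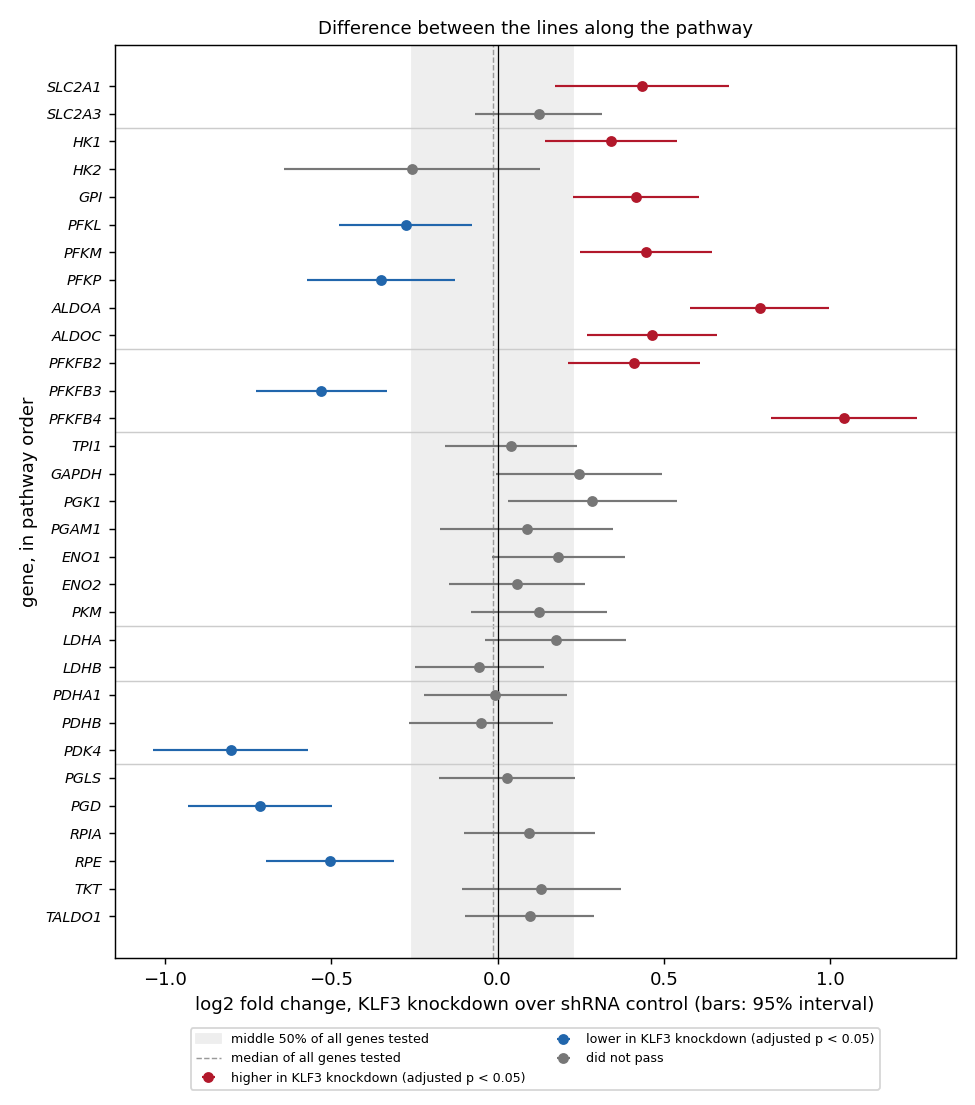
Log2 fold change of KLF3 knockdown over shRNA control with its 95% interval for the 31 tested genes in pathway order, red and blue where the adjusted p passed and grey where it did not; the shaded band spans the middle 50% of all genes tested, from -0.26 to 0.23. Changes above and below the band fall in uptake, upper glycolysis and the PFKFB enzymes, with PDK4, PGD and RPE below it further down; GAPDH and PGK1 lie just above the band in grey.

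The lower part of glycolysis, from triose phosphate isomerase to pyruvate kinase, held 7 members. None passed by its brightest probe, against 40.0% called among all genes tested, a contrast that was not tested. The 7 differences lay between 0.04 and 0.29, all above 0, with a median of 0.12. GAPDH, which makes the NADH of glycolysis and often serves as a reference gene, had 13.20 and 13.43 in knockdown cells and 13.09 and 13.05 in control cells. The brightest GAPDH probe thus sat slightly higher on both knockdown arrays, by 0.24 (95% interval -0.01 to 0.50, limma adjusted p = 0.105), and the other GAPDH probes gave 0.32 and 0.35 and passed over all kept probes (limma adjusted p = 0.0357 and 0.0328). PGK1, the kinase of the first ATP-yielding step, had 11.70 and 11.46 in knockdown cells and 11.28 and 11.31 in control cells. Its difference of 0.29 did not pass (limma adjusted p = 0.072), but its dimmer probe gave 0.59 and did (limma adjusted p = 0.00816). PKM, the pyruvate kinase of most tissues, had 8.81 and 8.88 in knockdown cells and 8.76 and 8.67 in control cells, a difference of 0.12 (limma adjusted p = 0.281). Of its other probes, 1 gave 0.35 and passed (limma adjusted p = 0.0281) and 1 gave 0.19 and did not. The PKM probes were designed for different transcripts, and which transcripts each reads was not checked.

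ENO1, the common enolase, had 13.86 and 13.88 in knockdown cells and 13.73 and 13.64 in control cells, a difference of 0.18 (limma adjusted p = 0.123). The triose phosphate isomerase gene TPI1 differed by 0.04, with its other probe at -0.18, the mutase gene PGAM1 by 0.09 and the neuronal enolase gene ENO2 by 0.06. These calls depend on the processing. GAPDH, PGK1 and ENO1 passed without background correction, with the authors' processed values and with an intensity trend in the variance prior, with differences of 0.18 to 0.29. GAPDH and PGK1 also passed with the mean of probes, GAPDH without knockdown replicate 1 (0.36, limma adjusted p = 0.0343) and PGK1 without knockdown replicate 2 (0.41, limma adjusted p = 0.0257). With median scaling ENO2 lay below 0, with the mean of probes TPI1 did, and without knockdown replicate 1 or control replicate 1 PGAM1 did. GAPDH, PGK1, TPI1, PGAM1, ENO1 and LDHA have processed copies in the genome, and PGAM1 has the near-identical gene PGAM4; signal of such copies on these probes cannot be told apart.

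**Figure D3:**
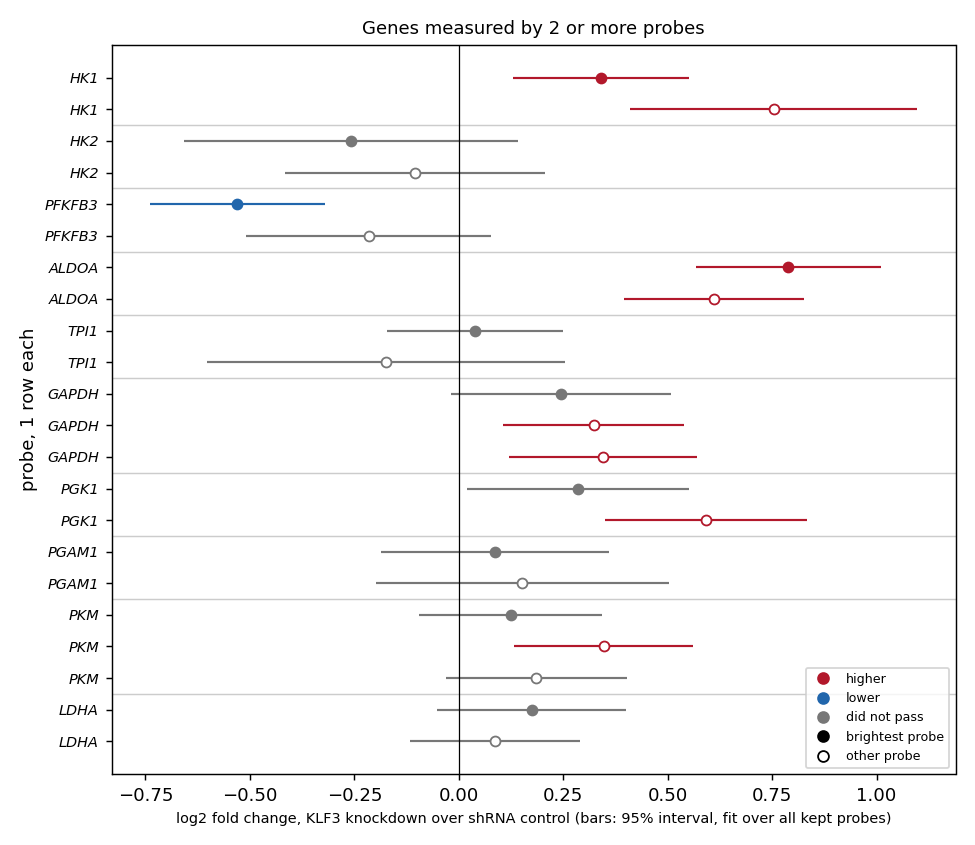
Log2 fold change of KLF3 knockdown over shRNA control with its 95% interval for the 22 kept probes of the 10 genes with 2 or more, from the fit over all kept probes; filled points are the brightest probe of each gene and open points its other probes. Probes of a gene lie on the same side of 0 for 9 of the 10 genes, all but TPI1, and calls differ between probes for PFKFB3, GAPDH, PGK1 and PKM; the other HK1 probe was not well above background in control cells, so its fitted point is no bound.

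Taking every kept probe by itself, 14 of 43 member probes were higher and 5 lower, 44.2% in all, against 34.5% of the 15722 kept probes. Genes with several probes count more than once here, and the further HK1 probe, which entered through the knockdown group alone, is among the 14. Of the 15722 probes 12461 had 1 symbol, so these shares are not over like probes. The remaining 16 member probes were not detected on both arrays of either group.

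Lactate dehydrogenase turns pyruvate into lactate and back. LDHA, the subunit that favours lactate, had 12.71 and 12.73 in knockdown cells and 12.61 and 12.48 in control cells. LDHB, the subunit of oxidative tissues, had 11.72 and 11.77 in knockdown cells and 11.79 and 11.82 in control cells. The knockdown arrays were above the control arrays for LDHA and below them for LDHB, by small amounts. The LDHA difference was 0.17 (95% interval -0.04 to 0.39, limma adjusted p = 0.16; 0.0401 with an intensity trend in the variance prior) and the LDHB difference -0.05 (95% interval -0.25 to 0.14, limma adjusted p = 0.613).

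At the entry to the mitochondrion, the subunits of pyruvate dehydrogenase did not pass. PDHA1 differed by -0.01 (95% interval -0.22 to 0.21) and PDHB by -0.05 (95% interval -0.27 to 0.17). Of the kinases that inactivate the complex, PDK4, which rises on fasting in other tissues, was the sole one detected. It had 6.96 and 7.05 in knockdown cells and 7.90 and 7.72 in control cells, with raw intensities of 234 and 231 against 359 and 328. Both knockdown arrays were clearly below both control arrays. PDK4 fell by 0.80 (SE 0.10, limma adjusted p = 0.00202), the largest fall of the list, and by 0.49 without background correction. PDK1, PDK2 and PDK3 had raw intensities between 113 and 140 in knockdown cells and between 117 and 147 in control cells, in the range of background.

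In the pentose phosphate pathway 2 of 6 genes fell and none rose, a share called no higher than the 40.0% among all genes. PGD, phosphogluconate dehydrogenase, which makes NADPH and ribulose phosphate in the oxidative arm, had 11.21 and 11.28 in knockdown cells and 12.03 and 11.89 in control cells. It fell by 0.72 (SE 0.09, limma adjusted p = 0.00224). RPE, the epimerase that turns ribulose phosphate into xylulose phosphate, had 8.60 and 8.57 in knockdown cells and 9.11 and 9.08 in control cells. It fell by 0.50 (SE 0.08, limma adjusted p = 0.00489). Its neighbours on chromosome 2 had a median of 0.19, in the other direction. The 2 further RPE probes were not above background. The probe that stood for RPE may also read the near-identical gene RPEL1. RPEL1 itself was detected on both control arrays and on neither knockdown array. Its knockdown signals lay below its control signals, and it did not pass (limma adjusted p = 0.1). The lactonase gene PGLS, which acts just before PGD, differed by 0.03, and the isomerase gene RPIA by 0.10. Transketolase (TKT) and transaldolase (TALDO1), which exchange sugars with glycolysis, differed by 0.13 and 0.10. These 4 had limma adjusted p from 0.326 to 0.806 and intervals between -0.18 and 0.37.

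Of the 14 genes that passed, PFKFB3, PFKFB4, PDK4, PGD and RPE passed under all 14 alternative settings and ALDOA under the 13 in which it could be tested. All 14 genes kept their direction throughout. Several of the smaller changes did not pass with 1 or another array left out. With an array left out, its group has 1 array, which is assumed to vary like the other group, and the test rests on fewer arrays. Without control replicate 2 the difference was 0.33 for HK1, 0.42 for GPI and 0.46 for PFKM, close to the values above, while it was -0.28 for PFKP and 0.30 for SLC2A1. Without control replicate 2, SLC2A1, HK1, GPI, PFKL, PFKM, PFKP, PFKFB2 and ALDOC did not pass, and without control replicate 1, HK1, GPI, PFKL, PFKM, PFKP and PFKFB2 did not. Without knockdown replicate 1, HK1 (limma adjusted p = 0.0549) and PFKL did not, and without knockdown replicate 2, SLC2A1 (limma adjusted p = 0.0509), PFKL and PFKP (limma adjusted p = 0.0761) did not. For GPI, PFKM, PFKFB2 and ALDOC the limma adjusted p without a control array, where they did not pass, lay between 0.0523 and 0.0737, with differences between 0.38 and 0.46.

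**Figure D4:**
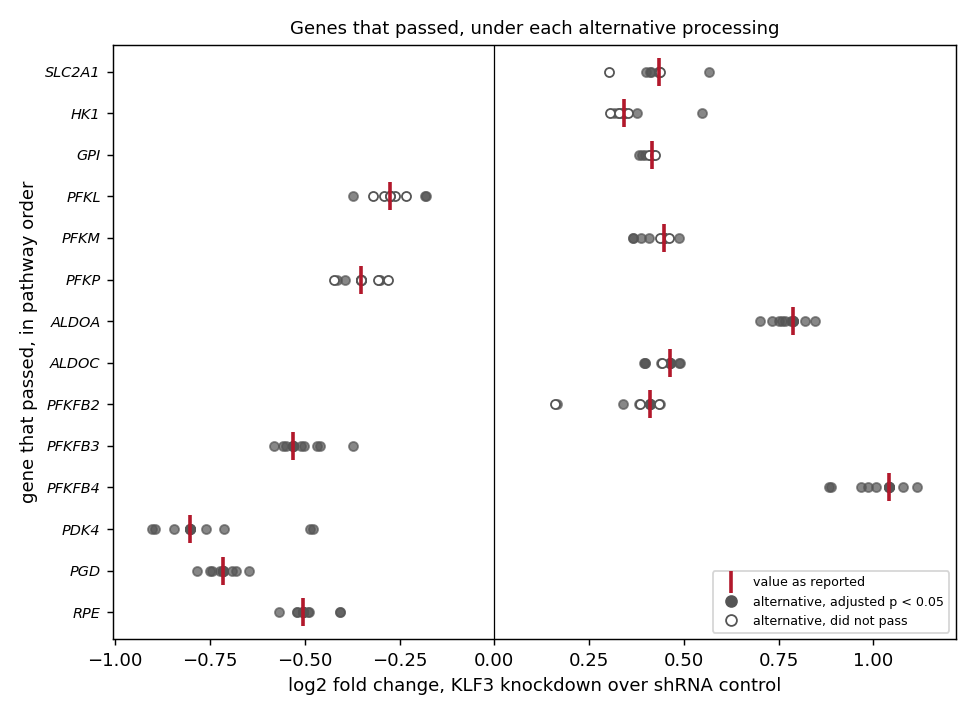
Log2 fold change of KLF3 knockdown over shRNA control of the 14 genes that passed, under each alternative setting, with filled points where the adjusted p passed, open points where it did not, and a red bar at the reported value. Every point lies on the reported side of 0, and PFKFB2 and PDK4 reach nearest to 0 relative to their reported value, at 0.16 and -0.48.

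The wider pathway was read from a list of 86 further genes, of which 41 were tested, 37 had probes that were not kept and 8 were not analysed here. Of the 41, 9 rose, 9 fell and 23 did not pass, with a median of 0.00. This is 18 of 41 called, close to the background of 40.0%. The counts for parts of this list, given below, rest on few genes each and were not tested against that background. With detection on all 4 arrays required, 8 rose and 8 fell of 36 tested. With control replicate 2 left out fewer of the 41 rose, and so did fewer of all genes tested.

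Neither of 2 further glucose transporters passed. Among other glycolytic genes 2 of 6 rose and none fell. ENO3, the muscle enolase, had 9.13 and 9.30 in knockdown cells and 8.44 and 8.32 in control cells, 1.78-fold higher (limma adjusted p = 0.0019). PGP, a phosphatase that clears a side product of pyruvate kinase, rose by 0.69 (limma adjusted p = 0.00331) and lies on chromosome 16, where its neighbours had a median of 0.45. Of 8 genes of pyruvate and lactate transport and oxidation, 3 rose and 1 fell. MPC2, a subunit of the mitochondrial pyruvate carrier, had 10.10 and 10.10 in knockdown cells and 9.10 and 9.15 in control cells, 1.96-fold higher (limma adjusted p = 0.000571). Its partner gene MPC1 differed by 0.18 and did not pass (limma adjusted p = 0.111). BSG, the basigin chaperone of lactate transporters, rose by 0.51 (limma adjusted p = 0.00867) and PCK2, the mitochondrial PEP carboxykinase, by 0.48 (limma adjusted p = 0.00671), and DLD, a dehydrogenase shared by pyruvate dehydrogenase and related complexes, fell by 0.31 (limma adjusted p = 0.0348).

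Where glucose phosphate leaves for glycogen and other branches, 3 of 11 genes rose and 4 fell. Of the glycogen phosphorylases, which release glucose phosphate from glycogen, PYGL and PYGB were lower and PYGM was not above background on any array. PYGL had 7.95 and 8.09 in knockdown cells and 9.26 and 9.33 in control cells, 2.42-fold lower (limma adjusted p = 0.000353), and PYGB was 1.90-fold lower (limma adjusted p = 0.00203). The glycogen branching enzyme gene GBE1 fell by 0.51 (limma adjusted p = 0.0347), and GPD1L, related to glycerol phosphate dehydrogenase, by 0.77 (limma adjusted p = 0.00202). SLC37A4, the glucose phosphate transporter of the endoplasmic reticulum, had 12.30 and 12.25 in knockdown cells and 11.40 and 11.45 in control cells, 1.81-fold higher (limma adjusted p = 0.000954). The phosphoglucomutase family genes PGM2 and PGM2L1 rose by 0.36 and 0.41 (limma adjusted p = 0.0329 and 0.0444). PGM2L1 was detected on both knockdown arrays and on 1 control array, so it too entered through the group where it was high.

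Of 7 other pentose phosphate genes PRPS2, which makes the ribose donor of nucleotides, rose by 0.29 (limma adjusted p = 0.0347) and TKTL1, a transketolase relative, fell by 0.73 (limma adjusted p = 0.0043). TKTL1 was detected on 1 knockdown array and on both control arrays, so it entered the test through the group where it was high. Of 7 regulators of glucose metabolism none rose and 3 fell, against 19.4% higher and 20.7% lower among all genes tested. EPAS1, encoding the hypoxia-inducible factor HIF-2alpha, had 7.57 and 7.22 in knockdown cells and 9.14 and 9.23 in control cells, 3.46-fold lower (limma adjusted p = 0.000388). EGLN1, the oxygen sensor that marks these factors for breakdown, fell by 0.45 (limma adjusted p = 0.0101), and ARRDC4, a thioredoxin-interacting protein relative that lowers glucose uptake, by 0.77 (limma adjusted p = 0.00159). HIF1A differed by -0.16, MYC by -0.07 and TXNIP by -0.05, and these did not pass (limma adjusted p = 0.518, 0.502 and 0.611).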

How the data were processed

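Total RNA of 4 samples was profiled on Illumina bead arrays. The deposited scanner table holds, per the file headers, the average probe intensity on each array. It also holds detection p-values, which were used as deposited. The authors' processed table gives intensity values that keep the scanner's rank order and look quantile-normalized when set against it; how it was made is not stated by the labels or headers, and it served as an alternative. Intensities were corrected and quantile-normalized with neqc (limma 3.58.1, R 4.3.3, offset 16) and taken to log2, which understates changes of dim genes. Probes detected (p under 0.01) on both arrays of a group numbered 15722, and 12461 of them had 1 symbol from the platform annotation, updated by gene identifier to GRCh38.p14; the brightest stood for each of 9530 genes. The groups were compared in limma (lmFit and eBayes, two-sided, no covariates, 2 residual and 4.33 prior degrees of freedom), and a second fit took all kept probes. With 2 arrays a group, the smallest p of an exact permutation test is 0.333. The number of arrays limits the precision. The members, the further gene list, the motifs and the cell type markers were chosen with earlier results of these data known. All members are accounted for, and genes of the further list are named where they passed. MPC1, SLC2A14, RPEL1, HIF1A, MYC and TXNIP were named after their values were seen. A fold for a probe undetected in a group is at least the ratio to the higher of its own signal and the lowest detected signal.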

Additional observations from a re-analysis of the deposited data

How the results depend on the processing

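The 14 alternatives changed background correction, normalization, starting values, probe choice, the filter on dim probes, the variance prior, the arrays used, the block, chromosome 16 and the unit of the fit. Over the single members, 392 of the values stayed on their side of the threshold, 26 lost it and 15 gained it; 9 of the 392 changed sign, none of them past the threshold in either fit. With single arrays left out, the members that rose numbered 2 to 8 and those that fell 4 to 5; over all genes 902 to 1612 rose and 884 to 1828 fell, and of the further list 5 to 9 rose. Without a filter on dim probes, 1189 genes rose and 1209 fell of 20045 tested. The PFKFB2 rise did not pass with the authors' processed values (0.16, limma adjusted p = 0.0566), and HK1, PFKL, PFKP and SLC2A1 did not without the filter. Median scaling moved the share of higher genes among those called over all genes to 37.4% from 48.3%. Without chromosome 16, 7 members rose and 6 fell. The repeats carry no number in the labels; the deviations of same-numbered arrays correlated across genes with r = -0.006. A fit with the replicate block gave 8 higher and 5 lower members, without PFKL (limma adjusted p = 0.0629), 8 higher and 8 lower genes of the further list, and 1724 higher and 1830 lower genes in all; it ended no other call among the members. Probes near background limit PFKFB2, and PDK1 to PDK3 could not be measured.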
